A study of Mus musculus with 19 samples.

Results

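STRA8, the germ cell protein that retinoic acid induces as meiosis begins, gave 510 strong and reproducible ChIP-seq summits at promoters that belong to a single protein-coding gene. A summit is the base within a ChIP-seq peak where the reads pile up highest, and its score is the -log10 p of the peak caller. The 510 were chosen by a score of at least 30 in FLAG/FLAG replicate 1, a summit no more than 200 bp away in both other FLAG/FLAG libraries, no wild-type summit within 1 kb, and transcription start sites (TSSs) of exactly 1 protein-coding gene within 1 kb. They come from the 5687 summits of replicate 1, of which 996 reached the score, 717 of these were shared with both other libraries, 662 also had no wild-type summit near, 596 also lay within 1 kb of a TSS and 510 did so for 1 gene only. They mark 509 genes, because Hmgb1, which encodes an abundant chromatin protein, has a summit at each of 2 TSSs. The scores, the summit positions in the 6 ChIP libraries and the TSS distance are therefore given as descriptions without a test, whereas sequence and RNA levels were not used by the rule.

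ChIP-seq with a FLAG antibody used unsorted testes of 3 Stra8 FLAG/FLAG males, whose Stra8 alleles both carry an N-terminal FLAG tag, and 3 samples from wild-type males without the tag. RNA-seq used preleptotene germ cells sorted from testes, in 3 samples from Stra8-deficient males (both alleles disrupted) and 4 from Stra8 heterozygous males (1 disrupted allele). Testes of the heterozygous males showed low STRA8 (2 samples) or high STRA8 (2 samples). The study places low-STRA8 cells in early preleptotene, before meiotic initiation, and high-STRA8 cells in mid or late preleptotene, after it. STRA8 level and stage therefore cannot be told apart between these groups. All groups had received WIN18,446, which blocks retinoic acid synthesis, on postnatal days 2 to 8 and retinoic acid on day 9, and testes were taken about 6.75 days later. Per the study's methods, the RNA-seq males also carried Ddx4-Cre and a Rosa26-tdTomato reporter, so that cells were sorted on a label restricted to the germ line, and no wild-type Stra8 group was sequenced. The 3 ChIP replicates were processed in separate batches, each with a FLAG/FLAG and a wild-type sample, and replicate 3 used a different library kit, so that replicate and batch cannot be told apart.

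At the preleptotene stage a germ cell replicates its DNA for the last time before the meiotic divisions and begins to build the machinery that pairs and recombines homologous chromosomes. On the strain background to which the study backcrossed its Stra8-deficient mice, STRA8 is needed for meiosis to begin. The study adds that males of mixed background lacked this strict need: their Stra8-deficient germ cells began meiosis but did not complete its prophase. MEIOSIN, the partner of STRA8 encoded by Gm4969, acts with it on chromatin. Promoters are read here through 3 kinds of data: where STRA8 sat, what DNA lay below it, and how much mRNA the gene gave when STRA8 was absent, low or high.

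The DNA at the summits is shown first, because it is the feature of these promoters that no part of the rule used. The study derived the motif CNCCTCAG from the same FLAG/FLAG libraries, so its presence here is not independent evidence that STRA8 recognises it. Sequences are from mm10 (GRCm38.p6), read 5′ to 3′ on the strand of the gene, in lower case, with matches to CNCCTCAG or to its reverse complement CTGAGGNG in capitals. The first set holds 100 bases centred on the summit of members with several matches (Iqsec1, Zyg11a, Lpgat1) or with 1 match (Hfm1, Kif23), all outside annotated exons of coding genes. They lie at chr6:90988985-90989084 (minus strand), chr4:108217463-108217562 (minus), chr1:191718650-191718749 (plus), chr5:106925892-106925991 (minus) and chr9:61946821-61946920 (minus).
Iqsec1: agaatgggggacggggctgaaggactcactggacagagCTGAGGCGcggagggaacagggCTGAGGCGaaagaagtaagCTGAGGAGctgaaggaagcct
Zyg11a: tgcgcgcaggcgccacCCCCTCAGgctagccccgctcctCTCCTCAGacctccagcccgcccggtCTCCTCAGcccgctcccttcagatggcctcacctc
Lpgat1: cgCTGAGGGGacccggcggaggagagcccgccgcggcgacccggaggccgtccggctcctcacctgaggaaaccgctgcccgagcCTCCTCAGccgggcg
Hfm1: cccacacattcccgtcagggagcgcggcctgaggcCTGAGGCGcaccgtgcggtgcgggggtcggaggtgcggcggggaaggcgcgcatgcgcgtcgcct
Kif23: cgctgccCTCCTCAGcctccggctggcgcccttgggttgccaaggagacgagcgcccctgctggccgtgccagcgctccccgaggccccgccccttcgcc

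The second set is limited to 30 bases around the match nearest the summit, for members whose summit window meets an exon: the highest score of all (Dip2c), the gene with the largest RNA increase (Pparg) and further genes, most of them of meiotic chromosomes. They lie at chr13:9276712-9276741 (plus), chr6:115361232-115361261 (plus), chr12:72917707-72917736 (minus), chr17:35046686-35046715 (minus), chr17:71552084-71552113 (plus), chr7:140787732-140787761 (minus) and chr19:6184495-6184524 (plus).
Dip2c: ctgacgaggcaCTGAGGAGgcgCTGAGGAG
Pparg: aggtgaccgggCTGAGGGGacgggctgagg
4930447C04Rik: aagctgcgggtCTGAGGAGgaggcagcagg
Msh5: gatcgtcgcggCTGAGGTGacggaaaaggc
Spdya: gaggtagatcgCTGAGGCGgaggctgtggg
Syce1: gctccacgggcCTGAGGGGgccagaggtag
Majin: tggccacctttCTGAGGTGctggaggaacc

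The third set shows high-scoring members without the whole motif. Mphosph8 (chr14:56668048-56668147, plus) holds only the 6-letter core CCTCAG or CTGAGG, capitalised here, on both strands, and Gm4969 (chr7:19118455-19118554, minus) and Rab8a (chr8:72160861-72160960, plus) hold neither.
Mphosph8: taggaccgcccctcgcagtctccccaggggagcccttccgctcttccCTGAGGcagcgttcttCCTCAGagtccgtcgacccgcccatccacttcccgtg
Gm4969: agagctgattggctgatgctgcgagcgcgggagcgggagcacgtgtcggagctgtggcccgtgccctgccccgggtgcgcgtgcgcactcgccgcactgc
Rab8a: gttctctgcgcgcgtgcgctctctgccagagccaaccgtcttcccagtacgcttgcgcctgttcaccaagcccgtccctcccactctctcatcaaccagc

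Within 50 bp of the summit, 132 of 510 members (25.9%, Wilson 95% interval 22.3 to 29.9) held at least 1 match to CNCCTCAG. The same share was 14.2% (11.1 to 18.1) of the 386 summits that met every other part of the rule at a score under 30, and 5.80% (4.88 to 6.88) of the 2121 promoter summits seen in replicate 1 only. It was 17.0% (12.1 to 23.3) of the 171 summits of any score that were likewise shared but lay near TSSs of 2 or more genes. Of 100 bp windows centred on a TSS of each of 21851 protein-coding genes, 3.29% held a match. Summits seen in replicate 1 only could also lie near TSSs of more than 1 gene. These intervals cover counting error over sites only, and sites are not replicates of a condition. Most members, 378 of 510, had no match in this window, 113 had 1, 13 had 2, 4 had 3, and 4930447C04Rik and Dip2c had 4 and 6.

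The 6-letter core was the word that set members apart most from promoter summits of replicate 1 only. Of 2077 six-letter words counted with their reverse complements, CCTCAG had the largest difference in share between members (39.8%) and promoter summits of replicate 1 only (13.0%), and it stood in 30.8% of the summits scoring under 30. Among shared summits at TSSs of 2 or more genes its share was 36.3%, near that of members. The words next in that order, CTCAGC (26.5% of members against 11.7%) and CCCTCA (22.9% against 8.49%), overlap the core. This word count was made after the motif was known and is a description.

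Other promoter motifs fixed for comparison did not separate members from the other promoter summits in this way. The GC box GGGCGG stood in 47.1% of members, 36.3% of summits scoring under 30 and 44.1% of those seen in replicate 1 only. For the AP-2 motif GCCNNNGGC the shares were 15.5%, 18.1% and 17.7%, for CCAAT 6.27%, 6.48% and 7.54%, and for the E-box CACGTG 2.55%, 4.4% and 2.69%. The ETS-like CCGGAAG (6.86%, 6.74% and 6.88%), the NRF1-like GCATGCGC (3.92%, 3.37% and 3.06%), the E2F-like TTCCCGC (5.49%, 5.18% and 3.68%) and the CRE TGACGTCA (0.784%, 0.518% and 0.896%) lay within 2 percentage points across the 3 classes. All were sought on both strands, and a window without a match says only that these letters are not in it.

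Matches gathered at the summit itself. Members had 11.4 matches per 100 summits in the 25 bp on the downstream side of the summit and 8.24 in the 25 bp on the upstream side, against 2.35 in the bin from 150 to 125 bp upstream and 4.71 in the bin from 125 to 150 bp downstream. Summits scoring under 30 had 4.15 and 2.85 in the same central bins, and promoter summits in replicate 1 only had 1.79 and 1.74. Of the matches whose midpoint lay within 50 bp of a member summit, which include some that cross the edge of the 100 bp window counted above, 113 (63.5%) read CTGAGGNG along the direction of transcription and 65 (36.5%) read CNCCTCAG. A wider search found a match within 500 bp of 337 members (66.1%), and the median distance from the summit to the nearest of these was 65.5 bp.

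**Figure D1:**
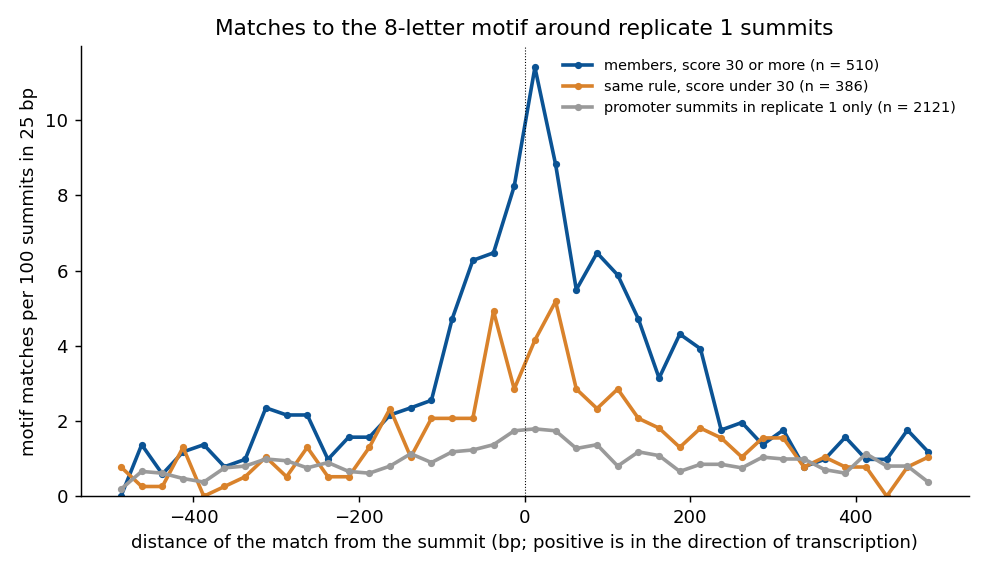
Matches to the 8-letter motif CNCCTCAG per 100 summits (y) in 25 bp bins by distance from the replicate 1 summit in bp (x), for the 510 members, the 386 summits of the same rule with a score under 30 and the 2121 promoter summits in replicate 1 only. The line of the members peaks at 11.4 beside the summit, above the other lines, and falls towards theirs some 250 bp away.

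Higher scores came with more matches. The share of members with a match was 19.5% and 20.5% in the lower score quartiles (30.1 to 36.7 and 36.8 to 49.1), 29.1% in the next (49.1 to 68.5) and 34.4% in the highest (68.5 to 372), with Wilson intervals of 13.6 to 27.2, 14.4 to 28.3, 21.9 to 37.6 and 26.7 to 43.0. The median replicate 1 score was 46.1 over the 378 members without a match, 53.4 over the 113 with 1 and 92.2 over the 19 with 2 or more. The medians rose in the same order in replicate 2 (28.5, 35.7 and 52.3) and in replicate 3 (21.8, 25.1 and 33.4). Score sets membership, so this order among members is a description.

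The promoters around these summits also held more matches than promoters in general. In the 2 kb around a TSS, counted at whichever TSS of the gene held most, 375 of 509 member genes (73.7%) had at least 1 match, against 61.1% of genes at summits scoring under 30 and 9486 of 21851 protein-coding genes (43.4%). At least 4 matches occurred in 31 member genes (6.09%), in 2.33% of genes at summits scoring under 30 and in 0.677% of all protein-coding genes. The most were 14 at 4930447C04Rik, the study's Six6os1, which encodes a central element protein of the synaptonemal complex, then 12 at Dip2c, 11 at Iqsec1 and 8 at Pparg.

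Members sat in CpG-rich DNA, as did the other promoter summits. Their 100 bp windows had a median GC content of 73.0% and a median of 12 CpG dinucleotides, against 71.0% and 12 in summits scoring under 30, 72.0% and 12 in promoter summits of replicate 1 only, and 60% and 5 in windows centred on TSSs of all coding genes.

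Summits lay close to the start of transcription. The median absolute distance to the nearest TSS of the gene was 101 bp, with quartiles of 39.2 and 210 bp, although the rule allowed 1000 bp. There were 241 summits upstream of the TSS, 266 downstream and 3 on it, 377 (73.9%) lay within 200 bp, and 20 (3.92%) lay over 500 bp away. By the annotated transcripts of the gene, 199 summits fell in the untranslated part of an exon, 26 in a coding part, 99 in an intron and 186 upstream of the gene.

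**Figure D2:**
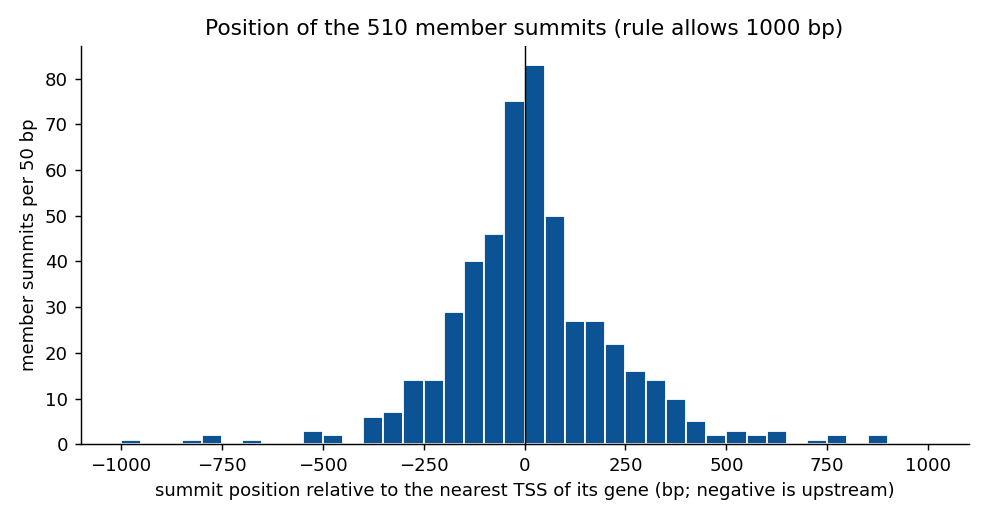
Number of member summits per 50 bp (y) by position relative to the nearest TSS of their gene in bp, negative upstream (x), for all 510 members. The summits pile up on both sides of the TSS, with 377 within 200 bp and 20 beyond 500 bp.

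The highest scores in replicate 1 went to promoters of genes with diverse known roles. Dip2c, a disco-interacting protein gene, scored 372, 244 and 215 in FLAG/FLAG replicates 1, 2 and 3, and Iqsec1, an exchange factor for ARF GTPases, scored 336, 288 and 233. Cux1, a homeobox transcription factor gene, scored 259, 154 and 224, and Pparg, which encodes a nuclear receptor best known from fat cells, scored 248, 170 and 207. These 4 led in replicate 1 and stayed above 150 in every FLAG/FLAG library. Sdk1, a cell adhesion gene, scored 222 in replicate 1 but 80.2 and 28.1 in the others, the widest gap among the top 15. Behind them came Zyg11a (220), 4930447C04Rik (219), Zfp280d (206), Lpgat1 (201), the meiotic mismatch repair homologue Msh5 (197), Gm4969 (186), Rab8a (179), Ep400 (169), Mphosph8 (166) and Btbd1 (165) in replicate 1. Replicate 2 and 3 summits of the top 15 lay between 2 and 154 bp from the replicate 1 summit.

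Over all 510 members the median score was 49.1 in replicate 1, 30.8 in replicate 2 and 22.4 in replicate 3, and the ranges were 30.1 to 372, 6.86 to 288 and 5.52 to 233. Replicate 1 had the highest of the 3 scores at 450 members (88.2%), and 141 (27.6%) reached 30 in every FLAG/FLAG library. A score grows with sequencing depth, and the depth of the ChIP libraries is unknown from the summit lists, so that a lower score in replicate 2 or 3 cannot be read as less STRA8. Ranks were similar between libraries, with Spearman's rho over the 510 sites of 0.645 (replicates 1 and 2), 0.634 (1 and 3) and 0.628 (2 and 3). These correlations describe sites picked for a summit in every library. The median distance from the replicate 1 summit was 42 bp to that of replicate 2 and 40 bp to that of replicate 3, and 213 members (41.8%) had both within 50 bp.

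**Figure D3:**
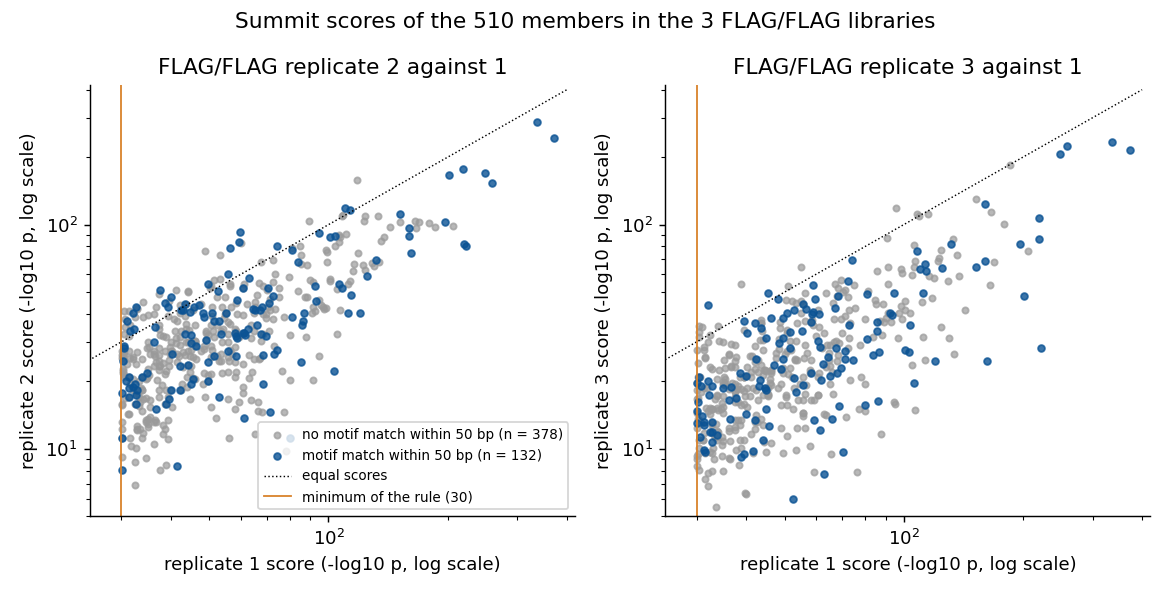
Score (-log10 p, log scales) of each of the 510 member summits in FLAG/FLAG replicate 1 (x) and in replicate 2 (left) or 3 (right, y), coloured by whether the motif stood within 50 bp, with the rule's minimum of 30 and a line of equal scores. Most points lie under the line, since replicate 1 was highest at 450 members, and coloured points are more frequent among the high scores.

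At the edge of the rule, members and excluded summits were alike in score. Usp31 (30.07), Ppp1r3e (30.07) and Atp2b1 (30.08) were the members just inside, and Phf21a (29.96), Ifnar1 (29.96) and Gtf2ird2 (29.85) were the summits just outside. The nearest wild-type summit to any member was 2.82 kb away, and the median was 697 kb.

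The members were spread over every autosome and the X chromosome, from 7 on chromosome 16 to 46 on chromosome 11. Chromosome X held 9 members (1.76%), whereas it carried 4.45% of the genes tested for RNA. The X-linked genes were Usp9x, Hprt, Fmr1, Cstf2, Rbbp7, Tspyl2, Tex11, Phf8 and Hccs, listed here after their values were seen.

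RNA from these genes was then compared among cells without STRA8, with low STRA8 and with high STRA8. The RNA libraries held 25049625 to 30015072 estimated counts. Stra8 itself, which is not a member, stood at 18, 22.8 and 5.16 TPM (a level scaled by transcript length and library size) in Stra8-deficient cells, 315 and 236 in low-STRA8 cells and 1100 and 1250 in high-STRA8 cells. Germ cell markers, summed over 9 genes, reached 4820 to 7070 TPM in Stra8-deficient, 4190 to 4640 in low-STRA8 and 9170 to 10600 in high-STRA8 libraries. Of these 9 genes, 4 rose and 1 fell from Stra8-deficient to high-STRA8 cells, and 1, Dmc1, is a member gene. The list holds Stra8 itself and meiotic genes, so its sum is no measure of the share of germ cells. Markers of undifferentiated spermatogonia, summed over 8 genes, were at 51.3 to 64.4, 16.0 to 20.3 and 22.6 to 23.5 TPM, and 2 of the 6 tested fell from Stra8-deficient to high-STRA8 cells. Sertoli cell markers (10 genes, none of them under 1 TPM in every library) were at 433 to 632, 104 to 399 and 564 to 609 TPM, and none of them passed the test between high-STRA8 and Stra8-deficient cells. Macrophage and blood markers (8 genes) were at 10.5 to 29.4, 46.0 to 52.0 and 1.90 to 8.73 TPM, and 1 of the 7 tested fell from Stra8-deficient to high-STRA8 cells. Leydig cell markers (7 genes, 1 of which fell) ranged over 3.54 to 19.7 TPM, peritubular and endothelial markers (8 genes, 1 of which rose) over 13.9 to 45.5 TPM and pachytene and later germ cell markers (10 genes, none called) over 5.46 to 9.48 TPM in the 7 libraries. The part of these cell types in the results below was not tested, and in bulk RNA a change in the share of cells cannot be told apart from a change of RNA per cell.

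Member genes were mostly expressed without STRA8, and their median level was higher in high-STRA8 cells only. Of the 509 genes, 508 exceeded 1 TPM in some library and were tested, 504 exceeded 1 TPM in every library, and 1, the kelch-domain gene Kbtbd12, did so in a high-STRA8 library only (1.17 TPM). Most genes that passed this filter were expressed without STRA8. The Stra8-deficient mean was under 1 TPM for 3 of the 508 members and for 5.73% of all genes tested. The median level of the 508 was 67.3, 61.2 and 58.9 TPM in the Stra8-deficient libraries, 64.4 and 60.9 in the low-STRA8 libraries and 100 in both high-STRA8 libraries. The median of all 12529 genes tested moved between 21.6 and 27.1 TPM.

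From Stra8-deficient to high-STRA8 cells, 358 of 508 member genes (70.5%) rose at an adjusted p under 0.05, against 18.8% of all genes tested, and 7 (1.38%) fell, against 18.3% of all genes tested (edgeR quasi-likelihood test, Benjamini-Hochberg adjustment over all genes). Their median log2 fold change was 0.67, or 1.59-fold, with quartiles of 0.31 and 1.07, and that of all genes was -0.02. A rise over 2-fold was called for 146 members (28.7%), against 5.95% of all genes tested, and one over 4-fold for 32 (6.3%), against 1.4%. Without either of the high-STRA8 libraries, which leaves 1 sample in that group with a spread taken from the other groups, the count of members that rose was 287 (without replicate 1) or 270 (without replicate 2), and 2 fell in either case. The count that fell was 4 without Stra8-deficient replicate 1 or without replicate 3.

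From low-STRA8 to high-STRA8 cells, 333 members (65.6%) rose, against 21.4% of all genes tested, and 11 (2.17%) fell, against 18.3% of all genes tested, with a median log2 fold change of 0.59 beside 0.01 over all genes. The counts were 205 that rose and 3 that fell without high-STRA8 replicate 2, and 244 and 6 without high-STRA8 replicate 1. This comparison shares the high-STRA8 libraries with the first.

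From Stra8-deficient to low-STRA8 cells the share of members that rose was above that of all genes tested, and the share that fell was near it. Of the 508, 137 (27.0%) were higher in low-STRA8 cells, against 10.2% of all genes tested, and 74 (14.6%) were lower, against 13.9% of all genes tested. The median log2 fold change was 0.14 (all genes, 0.03), and it was -0.04 beside -0.15 over all genes with limma on log2(TPM + 1), so the direction of the median depends on the method. Without low-STRA8 replicate 1 the counts were 83 higher and 48 lower, and without Stra8-deficient replicate 2 they were 95 and 47. For 210 members (41.3%) the mean TPM was in ascending order from Stra8-deficient through low-STRA8 to high-STRA8 cells, against 15.2% of all genes tested.

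**Figure D4:**
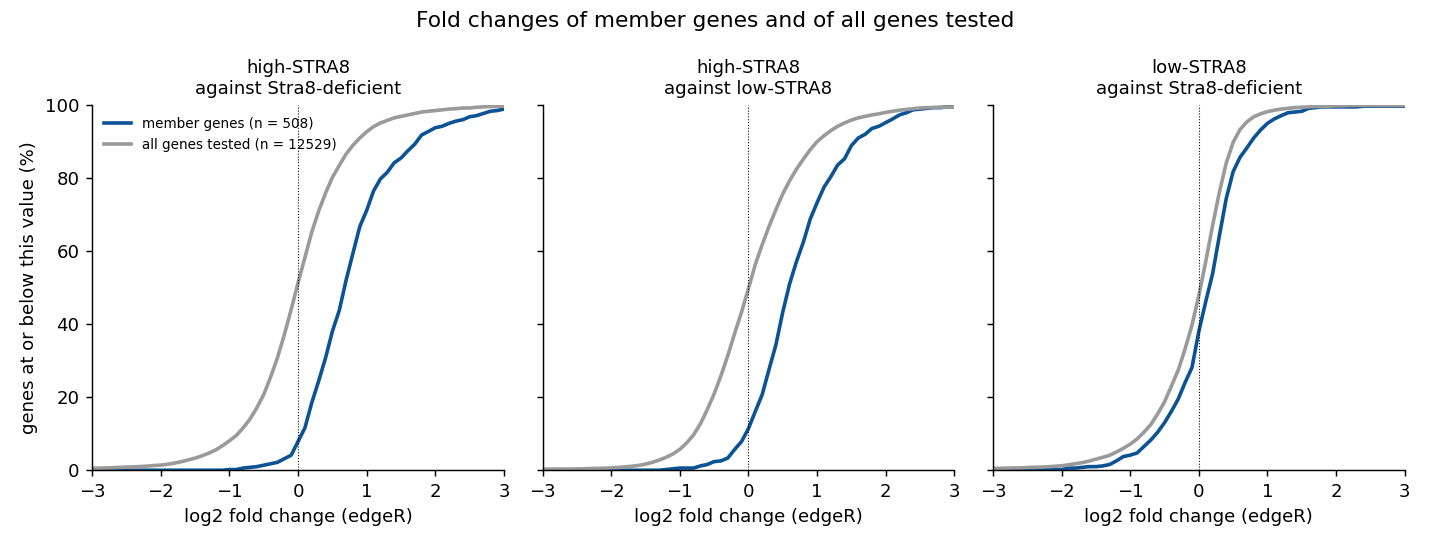
Share of genes (y, %) with a log2 fold change at or below the value on x, for 508 member genes and all 12529 genes tested, in the 3 comparisons named over the panels. The curve of the members lies to the right of that of all genes in both comparisons with high-STRA8 cells, with medians of 0.67 and 0.59, and near it between low-STRA8 and Stra8-deficient cells, with a median of 0.14.

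Other promoter summits of replicate 1 went with smaller shares of risen genes between high-STRA8 and Stra8-deficient cells. The share was 70.5% (Wilson 66.4 to 74.3) for the members, 51.6% (46.6 to 56.5) of 382 genes at summits scoring under 30, 38.3% (35.5 to 41.1) of 1162 genes at summits shared with 1 other library, and 22.5% (20.7 to 24.5) of 1925 genes at summits seen in replicate 1 only. The last was near the 18.8% of all genes tested. The score or the number of libraries that share a summit, both used to choose the members, also define these classes, and no test of the difference was made. Summits shared with 1 other library or seen in replicate 1 only could also lie near TSSs of more than 1 gene. Each of those was counted for the gene with the nearest TSS.

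Among the members, the share that rose was highest where the motif stood at the summit. It was 66.5% (61.6 to 71.1) of 376 genes without a match, 80.5% (72.3 to 86.8) of 113 genes with 1 match and 89.5% (68.6 to 97.1) of 19 genes with 2 or more. The median log2 fold changes were 0.64, 0.83 and 0.75, so that the size of the change did not follow the order of the shares. The study found the motif at promoters of genes chosen in part for a rise between Stra8-deficient and high-STRA8 cells. The order of these shares is therefore partly built in and is given as a description. The 7 members that fell had no match, but neither had most members, and these 7 were 1.86% of the 376 genes without one. So few falls cannot show a link with the motif. Over score quartiles, from lowest to highest, the shares that rose were 64.1%, 66.1%, 77.0% and 74.8%. Members with the summit at or downstream of the TSS rose in 75.7% of cases (70.3 to 80.5) and those with it upstream in 64.6% (58.3 to 70.4). All 9 X-linked members rose, beside 107 of 555 X-linked genes tested (19.3%).

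The largest increase was of a gene that was nearly silent without STRA8. Pparg stood at 0.101, 0 and 0.141 TPM in Stra8-deficient, 5.46 and 1.16 in low-STRA8 and 33.4 and 42.0 in high-STRA8 cells. Its groups did not overlap, and the level was higher at each step from Stra8-deficient through low-STRA8 to high-STRA8 cells. The fitted log2 fold change from Stra8-deficient to high-STRA8 cells was 8.99 (standard error 0.78, adjusted p = 0.00013, edgeR). It rests on 2, 0 and 3 estimated counts in the Stra8-deficient libraries, so its size depends on the method.

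The 14 gene lists described from here on hold a minority of the member genes, so that most members are in none of them. Genes that tie telomeres to the nuclear envelope in meiosis rose as a group: all 3 members of that list, and all 4 listed genes tested that are not members. Majin, an anchor of telomeres in the membrane, was at 2.87, 5.63 and 5.30 TPM in Stra8-deficient, 30.2 and 13.7 in low-STRA8 and 103 and 100 in high-STRA8 cells. Spdya, an activator of CDK2, was at 7.82, 6.54 and 6.36, at 22.9 and 11.8, and at 75.2 and 82.5 TPM. The groups were apart for both, with log2 fold changes from Stra8-deficient to high-STRA8 cells of 4.51 (standard error 0.37, adjusted p = 0.000103) and 3.58 (0.24, 6.49e-05). Terb1, a partner of MAJIN, rose by 2.17 on the log2 scale (0.18, 0.00012) but did not differ by the test between low-STRA8 and Stra8-deficient cells (10.6 and 7.58 against 11.3, 10.6 and 7.77 TPM).

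Of the genes for strand exchange, crossovers and mismatch repair, 37 were tested, 30 rose and 1 fell. All 9 members among them rose, with a median log2 fold change of 2.69, and 21 of the 28 others rose. Dmc1, the meiotic recombinase, was at 41.5, 54.6 and 40 TPM in Stra8-deficient, 147 and 81.5 in low-STRA8 and 301 and 317 in high-STRA8 cells (log2 fold change 2.85, standard error 0.22, adjusted p = 8.3e-05, high-STRA8 against Stra8-deficient). Msh5, which stabilises crossover intermediates, was at 2.66, 3 and 3.64, at 9.04 and 6.58, and at 22.2 and 25.5 TPM (3.06, 0.21, 6.49e-05). For both, the low-STRA8 libraries lay between the other groups. Meiob, a meiotic partner of RPA, was at 2.01, 1.45 and 0.570, at 3.12 and 1.44, and at 8.94 and 11 TPM (2.94, 0.48, 0.0021), with low-STRA8 cells overlapping Stra8-deficient ones. Hfm1, a helicase for crossover formation, showed the same overlap, at 11, 10.9 and 6.45, at 13.5 and 7.81, and at 50.8 and 63.7 TPM (2.69, 0.26, 0.000199). Brca2, a homologous recombination gene, fell between Stra8-deficient (42.0, 36.9 and 24.9 TPM) and low-STRA8 cells (16.8 and 14.8; log2 fold change -0.94, adjusted p = 0.011) and was highest in high-STRA8 cells (81.6 and 95). Hsf2bp, a partner of BRCA2, rose by 1.62, Tex11, an X-linked crossover gene, by 0.89 and Sfr1, also a recombination gene, by 0.83 on the log2 scale between high-STRA8 and Stra8-deficient cells.

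The synaptonemal complex, the protein zipper between paired homologues, and the proteins of the chromosome axis gave 6 members, and all 6 rose in both comparisons with high-STRA8 cells. Of the 9 other genes of that list that were tested, 5 rose and 1 fell between high-STRA8 and Stra8-deficient cells. Hormad1, an axis protein that recruits the break machinery, was at 264, 213 and 115 TPM in Stra8-deficient, 428 and 254 in low-STRA8 and 1150 and 1310 in high-STRA8 cells (log2 fold change 2.69 with a standard error of 0.30 and adjusted p = 0.00038). 4930447C04Rik was at 121, 52.5 and 40, at 71.0 and 46.9, and at 298 and 351 TPM (2.27, 0.39, 0.0026). In both, the low-STRA8 libraries overlapped the Stra8-deficient ones and both high-STRA8 libraries stood above, although Hormad1 passed the test between low-STRA8 and Stra8-deficient cells (adjusted p = 0.0439). Sycp2, a synaptonemal complex gene, was lower in low-STRA8 cells (23.0 and 22.2 TPM) than in Stra8-deficient cells (75.7, 76.4 and 35.2 TPM). That log2 fold change was -1.28 (edgeR, adjusted p = 0.0187), and Sycp2 was highest in high-STRA8 cells (124 and 166 TPM). The axis gene Hormad2 and the central element genes Syce2 and Syce1 rose 2.63-fold, 2.26-fold and 1.76-fold between Stra8-deficient and high-STRA8 cells, from 46.3 to 53.1, 336 to 434 and 187 to 210 TPM without STRA8.

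The list of genes linked to meiotic DNA breaks gave 5 members, which all rose between high-STRA8 and Stra8-deficient cells. Of the 8 other genes of that list that were tested, 4 rose too. Gm960, the mouse TOPOVIBL subunit that works with SPO11, was at 4.64, 3.36 and 3.50 TPM in Stra8-deficient, 7.87 and 6.01 in low-STRA8 and 13.3 and 14.4 in high-STRA8 cells, with no overlap between groups. Mei1, which is needed for the breaks, was at 31.8, 43.0 and 30.5, at 50.5 and 37.2, and at 103 and 119 TPM, with low-STRA8 cells overlapping Stra8-deficient ones. Their log2 fold changes from Stra8-deficient to high-STRA8 cells were 1.93 (standard error 0.20, adjusted p = 0.000293) and 1.75 (0.17, 0.000211), and those of Hells, Zcwpw1 and Mei4 were 1.53, 1.11 and 1.09.

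**Figure D5:**
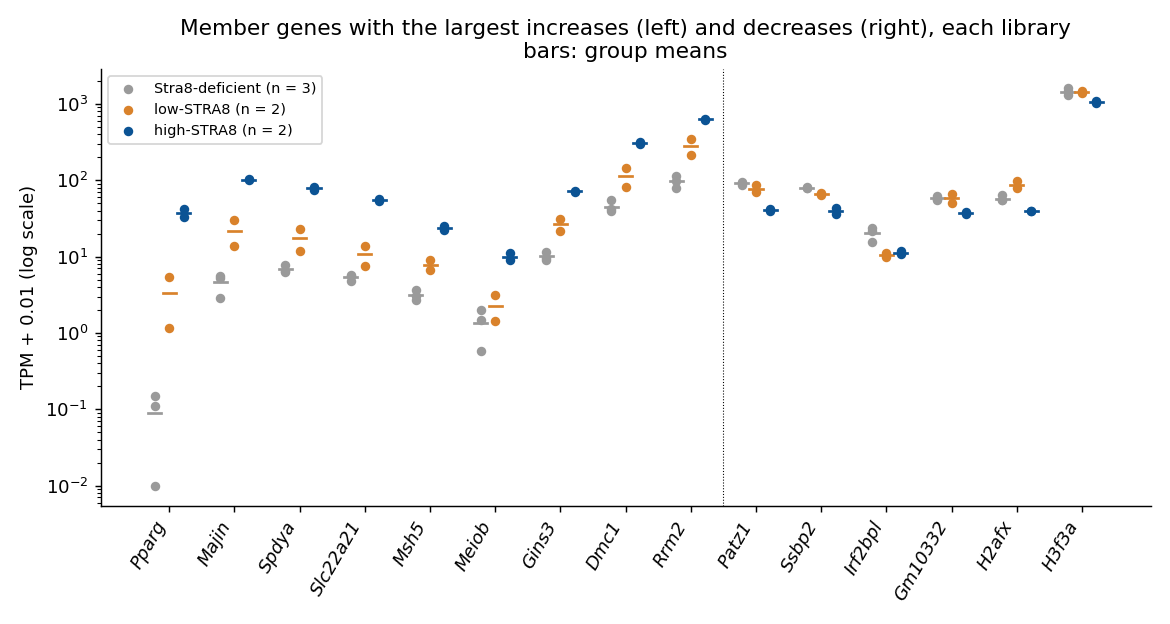
TPM plus 0.01 (y, log scale) of 9 of the 10 member genes with the largest increases and the 6 with the largest decreases between high-STRA8 and Stra8-deficient cells (x), with a point for each library and a bar at the mean of each group. In all 15 genes the high-STRA8 points do not overlap the Stra8-deficient points, which was part of how they were picked.

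Genes of DNA replication were also among the listed genes. Of the origin licensing and firing genes, 3 were members, and all 3 rose, as did 18 of the 25 others tested. Gins3, a subunit of the replicative helicase, was at 9.70, 11.4 and 9.05 TPM in Stra8-deficient, 31.5 and 21.9 in low-STRA8 and 70.4 and 72.6 in high-STRA8 cells (log2 fold change 2.91, standard error 0.16, adjusted p = 5.24e-05). Ticrr, which helps origins to fire, was at 13.3, 14.8 and 11.8, at 20 and 20.2, and at 72.3 and 70.1 TPM (2.52, 0.10, 2.98e-05). For both genes the order was Stra8-deficient, low-STRA8, high-STRA8 without overlap, and Cdc7, the kinase that triggers firing, rose by 1.53 on the log2 scale between Stra8-deficient and high-STRA8 cells.

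All 9 members among genes of replication forks, polymerases and nucleotides rose between high-STRA8 and Stra8-deficient cells, beside 27 of 39 others, 2 of which fell. Rrm2, which makes deoxynucleotides, was at 96.9, 114 and 79.3 TPM in Stra8-deficient, 352 and 214 in low-STRA8 and 642 and 611 in high-STRA8 cells (log2 fold change 2.77 with a standard error of 0.19 and adjusted p = 6.49e-05). Slbp, which binds histone mRNA, was at 197, 190 and 187, at 354 and 265, and at 614 and 595 TPM (1.79, 0.11, 5.79e-05). Both groups of heterozygous cells stood above Stra8-deficient cells for these genes. The fork protection genes Clspn and Tipin rose by 1.74 and 1.71, and the polymerase subunit genes Pole4 and Pold3 by 1.53 and 1.26, on the log2 scale between Stra8-deficient and high-STRA8 cells.

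The list of G1-S cyclins, kinases and E2F factors gave 2 members, which both rose, beside 14 that rose and 3 that fell among 30 others. Cdc25a, a phosphatase that activates CDK2, was at 25.2, 29.7 and 22.8 TPM in Stra8-deficient, 57.5 and 43.1 in low-STRA8 and 86.3 and 81.3 in high-STRA8 cells, without overlap (log2 fold change 1.79, standard error 0.13, adjusted p = 7.62e-05, high-STRA8 against Stra8-deficient). Cdkn2a, the other member of the G1-S list, rose by 0.57 on that scale. Of the G2-M and mitosis list, all 4 members rose: Kif23, a kinesin of cytokinesis (2.34), Ncapg2, a condensin II subunit (1.88), Bub1, a spindle checkpoint kinase (1.77), and Spc24, a kinetochore protein (0.87). Among the 42 other tested genes of that list, 18 rose and 12 fell.

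Among mitotic cohesins and their loaders, 2 of 4 members rose, beside 4 of 11 others. Esco2, a cohesin acetyltransferase, was at 106, 107 and 61.3 TPM in Stra8-deficient, 181 and 100 in low-STRA8 and 469 and 497 in high-STRA8 cells (log2 fold change 2.49 with a standard error of 0.26 and adjusted p = 0.000305), and Esco1 rose by 0.57. Stag1 and Pds5b did not pass (log2 fold changes 0.29 and 0.06, adjusted p = 0.0906 and 0.768), although the Stag1 summit scored 160. Stra8-deficient and high-STRA8 libraries overlapped for both of these genes.

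Genes of DNA damage signalling and repair gave 5 members, of which 4 rose and 1 fell, beside 13 that rose and 4 that fell among 35 others. Mdc1, the adaptor that reads phosphorylated H2AX, was at 40.8, 59.3 and 35.0 TPM in Stra8-deficient, 45.4 and 37.8 in low-STRA8 and 171 and 189 in high-STRA8 cells, where only the high-STRA8 libraries stood apart (2.1, standard error 0.19, adjusted p = 0.000165, log2 fold change by edgeR). The kinase gene Atr (1.09), the BRCA1 partner gene Bard1 (1.05) and the resection factor gene Rbbp8 (0.85) also rose on that scale. H2afx, which encodes the histone variant H2AX itself, went the other way, at 63.5, 54.6 and 55.2, at 78.6 and 97.4, and at 40.1 and 39.6 TPM. It was highest in low-STRA8 cells and lowest in high-STRA8 cells (log2 fold change -0.47 against Stra8-deficient, adjusted p = 0.0266, and -1.30 against low-STRA8, adjusted p = 0.000909), at a summit that scored 118.

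Chromatin genes gave 4 members that all rose between high-STRA8 and Stra8-deficient cells, beside 7 that rose and 6 that fell among 24 others. Setdb1, an H3K9 methyltransferase, was at 96.0, 96.6 and 89.3 TPM in Stra8-deficient, 105 and 94.5 in low-STRA8 and 215 and 223 in high-STRA8 cells, and Ezh2, the methyltransferase of Polycomb repressive complex 2, was at 73.2, 67.2 and 67.6, at 88.3 and 77.6, and at 163 in both high-STRA8 libraries. Their log2 fold changes were 1.32 (standard error 0.08, adjusted p = 5.79e-05) and 1.33 (0.09, 6.15e-05), and those of Cbx1 and Suz12 were 0.86 and 0.63. None of the 14 ribosomal protein genes listed was a member, and 2 of them fell and none rose between Stra8-deficient and high-STRA8 cells.

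Of 20 tested regulators of meiotic prophase and germ cell RNA, Gm4969 was the 1 member, and it rose, beside 6 that rose and 2 that fell among 19 others. Of 25 tested germ cell transcription factors and TFIID paralogues, 4 were members, Pparg among them, and 3 of these rose, beside 6 that rose and 7 that fell among 21 others. Gm4969 was at 220, 370 and 122 TPM in Stra8-deficient, 324 and 200 in low-STRA8 and 1000 and 1170 in high-STRA8 cells (log2 fold change 2.29 with a standard error of 0.38 and adjusted p = 0.00221), with overlap between the first 2 groups. Taf4b, a germ cell subunit of the general factor TFIID, rose by 1.09 and 4933416C03Rik, which is listed with the TFIID paralogues, by 0.77 on the log2 scale between Stra8-deficient and high-STRA8 cells. Ctcfl, a testis paralogue of CTCF, stood at 98.1, 107 and 75, at 35.7 and 50.1, and at 87.8 and 89.6 TPM. Its Stra8-deficient and high-STRA8 libraries overlapped (log2 fold change 0.02, adjusted p = 0.951, of a sign that depended on the setting), whereas it was higher in high-STRA8 than in low-STRA8 cells (0.94, adjusted p = 0.00811).

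Strong binding was not always matched by a large rise. Of the 15 highest-scoring members, 12 rose between Stra8-deficient and high-STRA8 cells, with log2 fold changes from 0.42 (Lpgat1) to 8.99 (Pparg). Among all members tested 70.5% rose, in their highest score quartile 74.8%, and among all genes tested 18.8%. Dip2c, the top of the list, was at 22.9, 23.4 and 20.4 TPM in Stra8-deficient, 26.5 and 24.6 in low-STRA8 and 68.0 and 66.9 in high-STRA8 cells (1.70, standard error 0.09, adjusted p = 5.24e-05). Cux1 was lowest in low-STRA8 cells (36.0 and 38.4 TPM, against 65.0, 74.2 and 57.4 in Stra8-deficient and 113 and 119 in high-STRA8 cells), as was Sdk1 (6.55 and 9.03, against 19.3, 22.8 and 16.1, and 31.6 and 32.9 TPM). Zfp280d (0.49, adjusted p = 0.0608), Ep400 (0.40, 0.0528) and Btbd1 (-0.21, 0.199) did not pass, at scores of 206, 169 and 165. Ep400 and Btbd1 did pass against low-STRA8 cells, in opposite directions (1.27, adjusted p = 0.00109, and -0.47, adjusted p = 0.0212).

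Of the 19 members with 2 or more matches at the summit, 17 rose between Stra8-deficient and high-STRA8 cells, and Mtrf1l (log2 fold change 0.21, adjusted p = 0.36) and Ncor1 (-0.24, 0.292), named after their values were seen, did not pass. Besides Dip2c, 4930447C04Rik, Pparg and Lpgat1, those with the most matches, ties broken by score, were Iqsec1 (log2 fold change 0.84), Zyg11a (1.06), the Mediator subunit gene Med21 (1.19), Foxj3 (0.52), the hypoxia factor gene Hif1a (0.51) and Vcl, which encodes vinculin (1.61). Slc22a21, a carnitine transporter gene without a match, was among the 10 largest increases, at 5.80, 5.57 and 4.82 TPM in Stra8-deficient, 13.7 and 7.64 in low-STRA8 and 54.3 and 56.9 in high-STRA8 cells (3.45, standard error 0.20, adjusted p = 5.49e-05). Its close relative Slc22a5 is also a member gene, so that reads shared by both could have been split between them.

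The 7 members that fell between Stra8-deficient and high-STRA8 cells were Patz1, Bicd1, Ssbp2, Irf2bpl, Gm10332, H2afx and H3f3a. Patz1, a zinc finger repressor gene, was at 95, 93.4 and 85.8 TPM in Stra8-deficient, 69.5 and 86.4 in low-STRA8 and 42.5 and 39.6 in high-STRA8 cells (log2 fold change -1.05, standard error 0.13, adjusted p = 0.000556). H3f3a, an H3.3 histone gene with a second copy that encodes the same protein, was at 1600, 1300 and 1470, at 1460 and 1410, and at 1040 and 1080 TPM (-0.45, 0.11, 0.0123). The high-STRA8 libraries were the lowest in both. Ssbp2 fell by 0.87, Irf2bpl by 0.77 and Gm10332 by 0.57 on the log2 scale, and Bicd1, which was under 5 TPM in every group, by 0.88. Scores of 6 of these summits lay between 30.1 and 48.5, and that of H2afx was 118. The calls of Bicd1, Irf2bpl, Gm10332, H2afx and H3f3a depended on having both high-STRA8 libraries.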

How the data were processed

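Summit lists were made by the authors, who aligned reads to mm10 with Bowtie 1.2.0, called peaks with MACS2 2.1.1.20160309 for each replicate against its own input and removed blacklisted regions; the deposited score is the -log10 p of the summit. The authors quantified RNA with kallisto 0.43.0, and deposited estimated counts per transcript, summed here by gene, and TPM values rescaled over protein-coding genes. Members were found with GENCODE M21 basic protein-coding TSSs, and sequences were read from GRCm38.p6. Estimated counts were rounded, genes over 1 TPM in any library kept, and all 7 libraries fitted together with edgeR 4.0.16 (TMM, robust quasi-likelihood test, Benjamini-Hochberg adjustment over 12529 genes), after a test on simulated data. DESeq2 1.42.0, limma 3.58.1 on log2(TPM + 1), library totals, no filter, a replicate block and leaving out each library were alternatives. The DESeq2-normalised values of the authors were not used. Intervals are Wilson 95% intervals. The labels do not say that replicates are separate experiments beyond separate samples, so p-values measure the spread between these samples.

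The members and gene lists were chosen with earlier results of these data known. Named genes were the 15 highest scores and 3 summits on each side of the minimum, the 10 largest increases and up to 10 largest decreases past the threshold without overlap and with at least 5 TPM in the higher group (6 met this), up to 6 members of each list by adjusted p and all that fell, the 10 with most matches, members under 1 TPM without STRA8 and at least 5 TPM with high STRA8, and genes named by the study. Other names were chosen after their values were seen. 1 of the 10 largest increases is not reported here.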

Additional observations from a re-analysis of the deposited data

How the results depend on the processing

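A score minimum of 50 left 248 members. The share of members with the motif was 14.5% within 25 bp of the summit, 41.2% within 100 bp, 31% at a score minimum of 50, and 39.8% for the 6-letter core, a choice made after seeing the data. The median distance to the TSS was 113 and 112 bp from the replicate 2 and 3 summits and 82.5 bp with all transcripts. With library totals in place of TMM, which moved the median of all genes to -0.16 and -0.15, 13 members fell from Stra8-deficient to high-STRA8 cells (median 0.54) and 25 from low-STRA8 to high-STRA8 cells (median 0.44). From Stra8-deficient to low-STRA8 cells limma gave 72 members higher and 108 lower, with a median of -0.04. Leaving out 1 library gave 270 to 370 higher and 2 to 9 lower (high-STRA8 against Stra8-deficient), 205 to 352 higher and 3 to 13 lower (against low-STRA8), and 83 to 149 higher and 47 to 78 lower (low-STRA8 against Stra8-deficient). The log2 fold change of Ctcfl between high-STRA8 and Stra8-deficient cells was -0.12 with library totals, -0.06 with limma, and -0.1 to 0.12 without 1 library, and that of Pds5b was -0.07 with library totals. Of the 71 named genes past the threshold between high-STRA8 and Stra8-deficient cells, 11 lost their call without 1 library, all 11 without high-STRA8 replicate 2 (Sdk1, 4930447C04Rik, Lpgat1, Irf2bpl, Gm10332, H2afx, H3f3a, Sycp2, Esco1, Suz12 and Hif1a) and 7 without high-STRA8 replicate 1, and 4 of them under another setting (Lpgat1, Gm10332, H2afx and Esco1). The cause of these changes was not tested.

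Replicate numbers did not pair the RNA samples (correlations of same-numbered deviations from -0.144 to -0.0195). With the replicate number as a block, 323 members rose and 4 fell from Stra8-deficient to high-STRA8 cells, 99 were higher and 76 lower in low-STRA8 than in Stra8-deficient cells, the 4 genes just named lost their calls, and the log2 fold changes were -0.09 for Ctcfl and -0.000998 for Pds5b, high-STRA8 against Stra8-deficient. The crossed pairing of low-STRA8 and high-STRA8 libraries, added after seeing the data, gave 336 higher and 11 lower. The unknown depth of the ChIP libraries limits any comparison of scores between them, and 2 libraries per heterozygous group limit the RNA tests.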
